A study of Mus musculus with 18 samples.

Results

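The 8 genes described here belong to the neuromuscular junction and were followed through SETD2 depletion and muscle differentiation. They are Ache, Colq, Musk, Rapsn, Dok7, Lrp4, Agrn and Utrn. They were chosen by name as a functional set, not by a threshold on their values, and they are 8 of the 47311 annotated genes in the transcript tables. All 8 were present, with 43 annotated transcripts between them. The study used C2C12, a mouse line that grows as single myoblasts and fuses into myotubes, and reduced Setd2, a histone methyltransferase gene, with either of 2 siRNAs. The 6 groups, each of 3 libraries labelled as biological replicates, were myotubes with si-Setd2#1 (siRNA 1), myotubes with si-Setd2#2 (siRNA 2), myotubes with si-Ctrl (control), myoblasts with si-Setd2#1, myoblasts with si-Setd2#2 and myoblasts with si-Ctrl. Polyadenylated RNA of all groups was taken right after the cells had been stretched, unstretched cells were not analysed here, and the cells are 1 line grown without nerve. The labels do not say whether replicates came from separate cultures, so p-values measure the spread between these libraries, which may be technical.

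At the neuromuscular junction, agrin from the nerve and muscle binds LRP4, which activates the receptor kinase MuSK together with its cytoplasmic adaptor DOK7. MuSK signalling gathers acetylcholine receptors on the scaffold protein rapsyn, and utrophin, a relative of dystrophin, links the receptor-rich membrane to the cytoskeleton. Acetylcholinesterase, encoded by Ache, breaks down acetylcholine in the cleft, where the collagen tail ColQ anchors it to the basal lamina and to MuSK.

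Library depth ran between 43.5 and 66.6 megareads, as the sum of estimated reads. Setd2 itself averaged 45.6 and 36.4 CPM (read counts scaled to library size) with siRNA 1 and siRNA 2 in myotubes, against 106 CPM in control myotubes. In myoblasts it averaged 39.2 and 42.8 CPM, against 108 CPM in control, and it fell in all 4 comparisons (log2 fold changes of -1.20, -1.54, -1.46 and -1.33, adjusted p of at most 0.00299). Of the cell type markers, 6 myotube markers summed to between 15200 and 19500 CPM in the 9 myotube libraries and to between 30.3 and 125 CPM in the 9 myoblast libraries. The motor neuron markers Chat and Slc18a3 were at 0 in all 18 libraries, and the Schwann cell regulator Sox10 was at most 0.0792 CPM. Library names carry 1 of 2 prefixes within each stage (C13 or D1 in myotubes, C14 or D2 in myoblasts), spread over all 3 arms. The column of the third siRNA 2 myoblast library is named SETD3 in the table while its label says Setd2. The 3 siRNA 2 myoblast libraries, this one included, had between 39.3 and 45.0 CPM of Setd2.

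Musk and Agrn carry small optional exons whose estimated share of transcripts lay in separate ranges in the 2 stages, 3 libraries against 3, so these exons are shown first. They were picked for that separation. A 7-base Musk exon found in the same way is not shown, since its shares overlapped (96.1% in control myotubes, 97.6% in control myoblasts). Capitals mark the exon and lower case the 15 flanking bases of the neighbouring exons in the annotated transcript, 5′ to 3′ on the gene's strand (GENCODE M21, build mm10).
Musk 30-base exon, chr4:58327326-58327355, plus strand: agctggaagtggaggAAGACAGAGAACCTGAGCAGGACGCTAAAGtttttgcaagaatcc
Musk 24-base exon, chr4:58356482-58356505, plus strand: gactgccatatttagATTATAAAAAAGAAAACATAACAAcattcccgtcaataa
Agrn 12-base exon, chr4:156169546-156169557, minus strand: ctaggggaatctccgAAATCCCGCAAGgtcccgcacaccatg
Agrn 24-base exon, chr4:156168546-156168569, minus strand: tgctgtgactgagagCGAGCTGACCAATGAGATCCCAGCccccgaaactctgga
Agrn 33-base exon, chr4:156167777-156167809, minus strand: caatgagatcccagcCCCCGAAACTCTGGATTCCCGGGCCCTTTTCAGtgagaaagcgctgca
All 5 exons are coding and a multiple of 3 bases long. In Agrn the 12-base exon is the y-site insert, and the 24- and 33-base exons are the z-site inserts by which the nerve's agrin is known to differ from that of other tissues.

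Promoter windows of 300 bases around the annotated start, most of it upstream, were present for 5 of the 8 genes (RefSeq, build GRCm38.p6). Those of Musk and Ache are shown as examples, 1 from the agrin pathway and 1 from the hydrolysis pair. Capitals mark the E-box word CANNTG, a general binding word of basic helix-loop-helix factors, MyoD and myogenin among others, which reads the same on both strands.
Musk promoter, chr4:58285712-58286011, plus strand: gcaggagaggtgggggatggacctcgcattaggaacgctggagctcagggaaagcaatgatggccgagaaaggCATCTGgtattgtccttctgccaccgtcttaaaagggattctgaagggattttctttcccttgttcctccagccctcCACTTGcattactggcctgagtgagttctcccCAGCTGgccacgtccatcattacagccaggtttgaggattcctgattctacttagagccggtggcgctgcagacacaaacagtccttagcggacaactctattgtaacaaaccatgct
Ache promoter, chr5:137288004-137288303, plus strand: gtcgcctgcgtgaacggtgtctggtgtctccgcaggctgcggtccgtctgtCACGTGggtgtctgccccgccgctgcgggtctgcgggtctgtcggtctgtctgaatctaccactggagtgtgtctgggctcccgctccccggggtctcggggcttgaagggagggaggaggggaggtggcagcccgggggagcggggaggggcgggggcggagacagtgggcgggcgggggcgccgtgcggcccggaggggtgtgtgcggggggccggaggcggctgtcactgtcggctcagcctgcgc
The Musk window held 3 such words, 1 of them CAGCTG, and the Ache window held 1, which was CACGTG. Of all 32851 windows of this length, 72.3% held at least 1 CANNTG, with a mean of 1.39 matches, overlapping matches counted, and 16.3% held CAGCTG. The Utrn window held 7, the 2 Dok7 windows held 1 and 0, and the 2 Agrn windows held 1 and 0. The windows of Ache and Utrn (chr10:12861686-12861985 for Utrn) lie inside the GENCODE spans of these genes given below, downstream of their 5′ ends. The N-box CCGGAA, searched on both strands, was in 14.9% of all windows and in none of these.

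Differentiation in control cells raised 7 of the 8 genes and left only agrin without a call. Over all 16930 genes tested, 39.4% rose and 38.1% fell in the same comparison (edgeR quasi-likelihood test, Benjamini-Hochberg adjusted p under 0.05, which is what called, rose and fell mean throughout). The median log2 change of the 8 was 2.22, beside 0.004 over all genes. In bulk RNA more expressing cells and more RNA per cell cannot be told apart.

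The hydrolysis pair showed the widest step of the 8. Ache, at chr5:137287519-137294466 on the plus strand, had 7.66, 7.12 and 7.85 CPM in control myotubes, against 0.0331, 0.0367 and 0.0530 CPM in control myoblasts. Those myoblast values stand for 2, 2 and 3 reads per library. Pooled over 3 libraries, 1199 reads in myotubes faced 7 reads in myoblasts, a ratio of 184 with an exact 95% counting interval of 88.9 to 458. Colq, at chr14:31523082-31591343 on the minus strand, had 8.92, 5.95 and 8.12 CPM in control myotubes, against 0.0166, 0.00 and 0.0530 CPM in control myoblasts. Here 1191 reads faced 4, a ratio of 319 with an interval of 124 to 1170. These intervals cover counting error only. Both genes were close to the detection limit in myoblasts, and the groups did not overlap.

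The receptor side of the agrin pathway rose by smaller factors from measurable levels. Lrp4, the agrin receptor at chr2:91457511-91513779, had 378, 404 and 360 CPM in control myotubes, against 53.0, 42.2 and 41.6 CPM in control myoblasts (log2 fold change 3.06, SE 0.12, adjusted p = 3.45e-12 by edgeR). Musk, the kinase at chr4:58285960-58374303, had 132, 136 and 119 CPM in control myotubes, against 27.0, 25.1 and 26.2 CPM in control myoblasts (2.30, SE 0.07, adjusted p = 6.2e-16 by edgeR). Dok7, the MuSK adaptor at chr5:35056766-35087839, had 64.0, 61.4 and 63.1 CPM in control myotubes, against 14.7, 14.9 and 13.5 CPM in control myoblasts (2.13, SE 0.08, adjusted p = 1.13e-14 by edgeR). For all 3 genes the lowest myotube library stood above the highest myoblast library.

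Rapsn, the receptor scaffold at chr2:91035620-91045729, had 109, 106 and 105 CPM in control myotubes, against 36.9, 35.0 and 37.55 CPM in control myoblasts (log2 fold change 1.55, SE 0.05, adjusted p = 1.1e-16 by edgeR). Utrn, the cytoskeletal linker at chr10:12382188-12869365, had 586, 635 and 533 CPM in control myotubes, against 272, 274 and 287 CPM in control myoblasts (1.07, SE 0.06, adjusted p = 9.01e-12 by edgeR). Neither gene's groups overlapped. Agrn, the ligand at chr4:156165290-156197488, had 49.3, 47.9 and 49.8 CPM in control myotubes, against 52.7, 45.3 and 46.1 CPM in control myoblasts. Its log2 change was 0.03 with a 95% interval of -0.10 to 0.15 and adjusted p = 0.69 by edgeR, and the 2 groups overlapped.

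**Figure D1:**
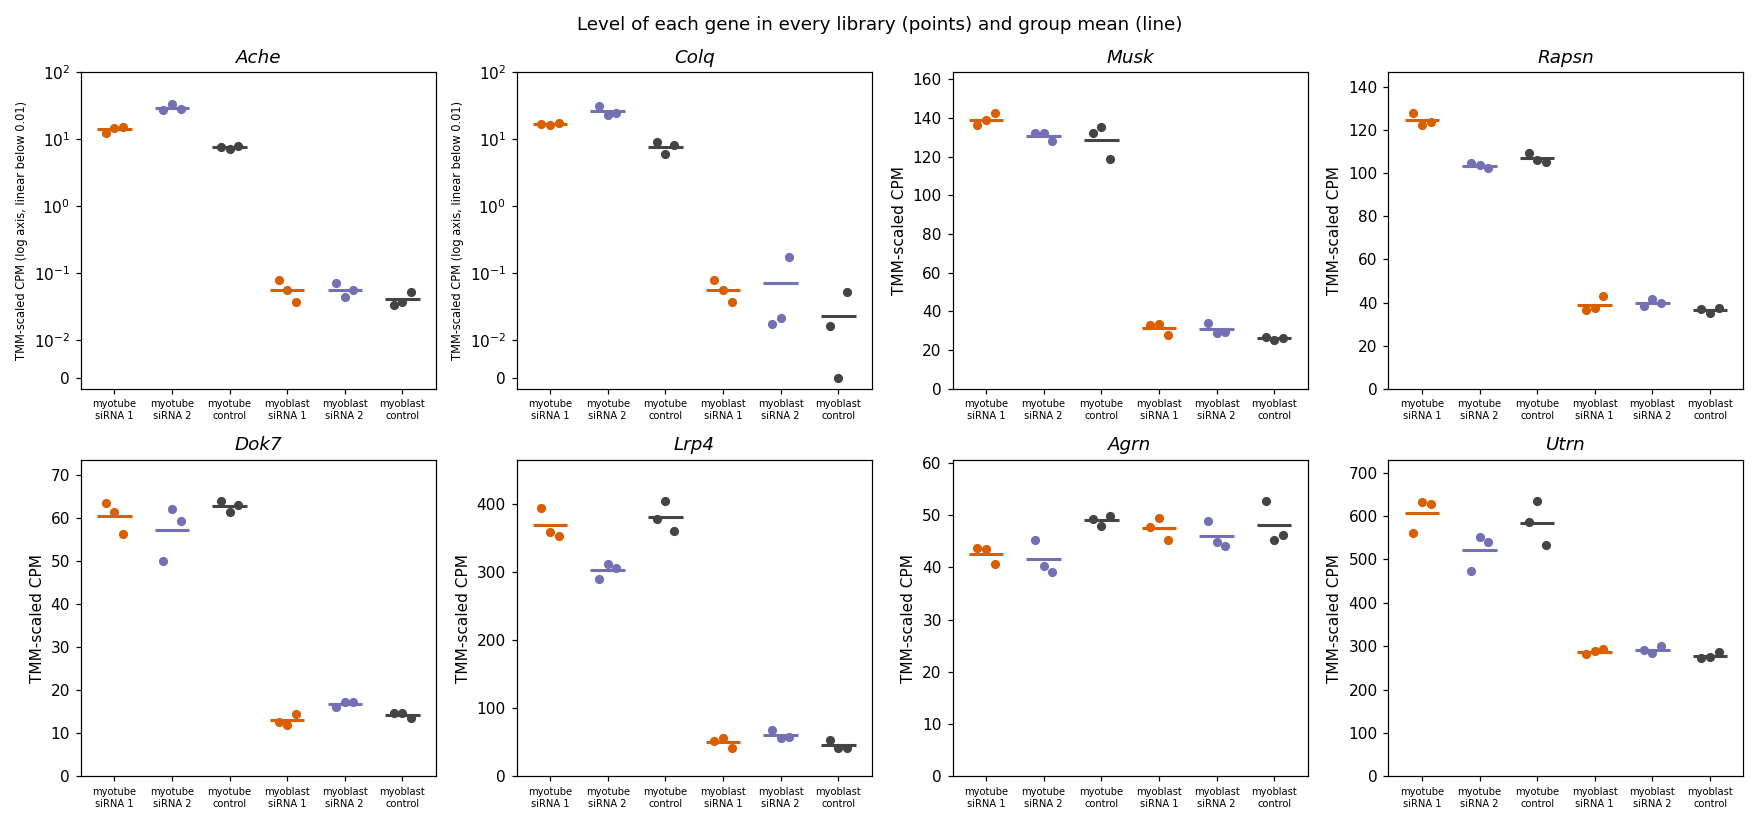
TMM-scaled CPM of the 8 genes in each of the 18 libraries (points) with the mean of 3 (lines), siRNA 1 in orange, siRNA 2 in purple and control in grey, on a log axis (linear below 0.01 CPM) for Ache and Colq and linear axes from 0 elsewhere. Ache and Colq are at most 0.176 CPM in every myoblast library and step up with each siRNA in myotubes, while Agrn stays between 39.2 and 52.7 CPM throughout.

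On a scale that divides by transcript length (TPM) the order of the genes changed with the stage. In control myotubes the mean levels ran Rapsn 144, Lrp4 93.7, Utrn 88.5, Musk 77.4, Dok7 48.4, Agrn 15.7, Ache 6.66 and Colq 5.32 TPM. In control myoblasts they ran Rapsn 48.6, Utrn 41.4, Musk 16.4, Agrn 15.2, Lrp4 11.1, Dok7 11.1, Ache 0.0406 and Colq 0.0159 TPM. Only Lrp4 and Utrn overlapped as neighbours in control myotubes, whereas Musk with Agrn, Lrp4 with Dok7, and Ache with Colq overlapped in control myoblasts. Lrp4 thus moved from the fifth place in myoblasts to the second in myotubes. With siRNA 2 in myotubes Ache and Colq averaged 24.5 and 17.0 TPM and both stood above Agrn at 12.6 TPM, with no overlap. With siRNA 1 in myotubes Agrn at 13.04, Ache at 11.97 and Colq at 11.13 TPM overlapped in turn.

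**Figure D2:**
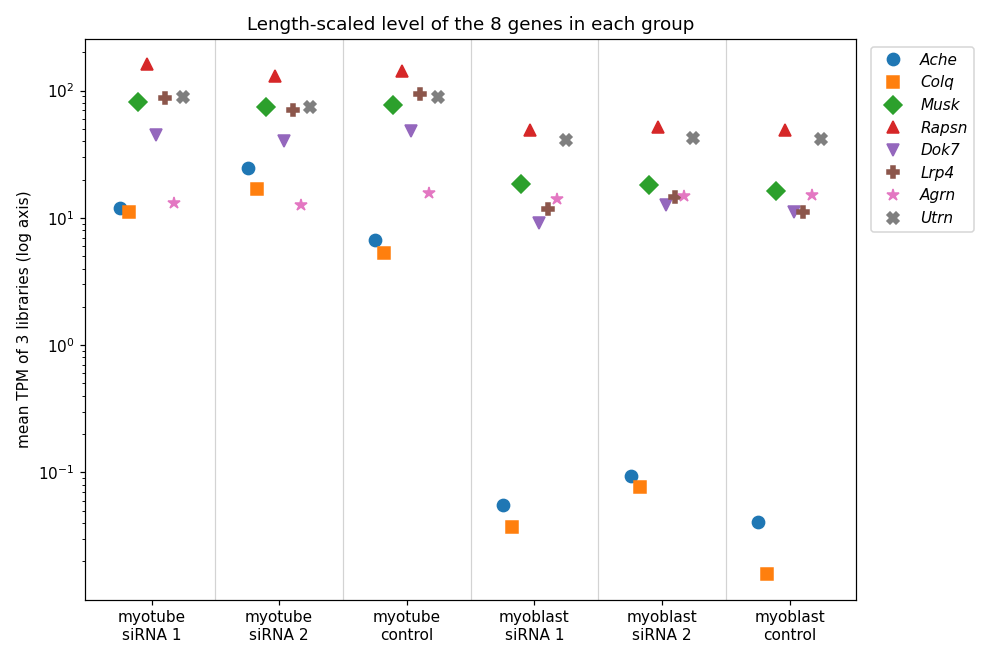
Mean TPM of 3 libraries for each of the 8 genes in the 6 groups, on a log axis. Rapsn is the highest in every group, and Ache and Colq lie below Agrn in control myotubes (6.66 and 5.32 against 15.7 TPM) and above it with siRNA 2 (24.5 and 17.0 against 12.6 TPM).

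SETD2 depletion raised the hydrolysis pair in myotubes. In that stage 3 of the 8 genes rose and 1 fell with siRNA 1, where 11.0% of 16097 genes tested rose and 9.57% fell. With siRNA 2, 2 rose and 2 fell, where 15.8% rose and 16.4% fell. The 2 comparisons share the 3 control libraries.

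Ache had 12.35, 14.7 and 15.3 CPM with siRNA 1 and 27.2, 32.75 and 28.2 CPM with siRNA 2 in myotubes, against 7.66, 7.12 and 7.85 CPM in control myotubes. Every depleted library lay above every control library, and every siRNA 2 library above every siRNA 1 library. The log2 fold changes over control were 0.91 (SE 0.09, adjusted p = 7.32e-05) with siRNA 1 and 1.96 (SE 0.09, adjusted p = 1.44e-07) with siRNA 2, both by edgeR. Colq, its anchor, had 16.5, 16.3 and 17.2 CPM with siRNA 1 and 30.95, 22.6 and 24.5 CPM with siRNA 2, against 8.92, 5.95 and 8.12 CPM in control myotubes. Its log2 fold changes were 1.14 (SE 0.17, adjusted p = 0.00262) with siRNA 1 and 1.78 (SE 0.17, adjusted p = 0.000142) with siRNA 2, both by edgeR. The 3 groups of Colq did not overlap either. In the same libraries the 6 myotube markers summed to 18100 CPM in each siRNA 1 library and to between 16800 and 19500 CPM with siRNA 2, against between 15200 and 16700 CPM in control myotubes. Of these 6, Myog was below control with siRNA 2 (811 to 863 CPM, against 876 to 933 CPM) and overlapped it with siRNA 1. Each other marker of that list had a higher mean than control with both siRNAs. The 5 dividing-myoblast markers summed to between 314 and 339 and between 323 and 360 CPM with siRNA 1 and siRNA 2, against between 407 and 419 CPM in control. Of these 5, Myod1, Mki67 and Ccnb1 were below control in every depleted library, while Pax7 overlapped it with both siRNAs. Myf5 overlapped control with siRNA 1 and went the other way with siRNA 2, above control in every library. Myod1 went against its place on that list, since it averaged 182 CPM in control myotubes and 95.4 CPM in control myoblasts. In depleted myotubes it averaged 154 CPM with siRNA 1 and 155 CPM with siRNA 2. Mki67 ran between 105 and 110 and between 110 and 119 CPM with siRNA 1 and siRNA 2, against 149 to 160 CPM in control myotubes. The part of these shifts in the Ache and Colq results was not tested.

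Within the prefixes of the library names both genes were higher in depleted myotubes throughout. Within prefix C13, with 1 depleted library per siRNA against 2 controls, the log2 ratios with siRNA 1 were 0.683 for Ache and 0.964 for Colq, and with siRNA 2 they were 1.815 and 1.864. Within prefix D1, with 2 depleted libraries per siRNA against 1 control, the siRNA 1 ratios were 1.084 and 1.504 and the siRNA 2 ratios 2.103 and 1.99. An annotated antisense gene in exons of Ache, Gm42456, averaged 0.00117 CPM, and Gm49387, which shares exon sequence with Colq on the same strand, averaged 0.0889 CPM.

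**Figure D3:**
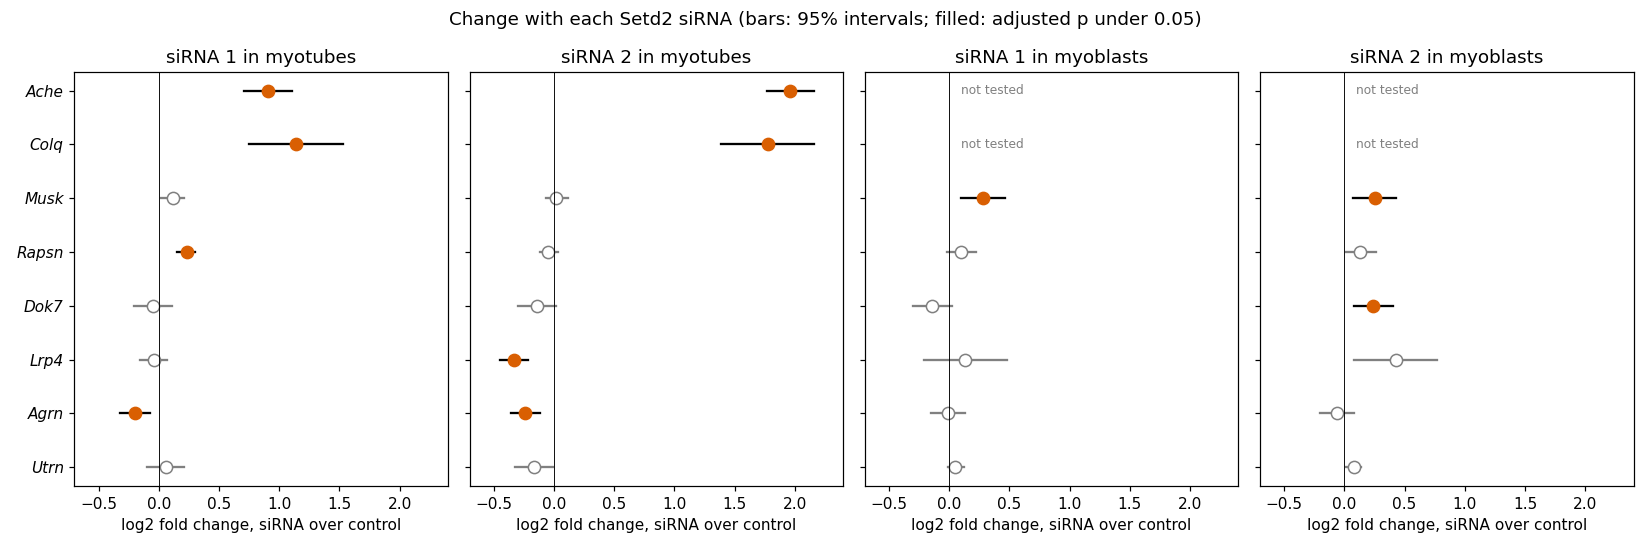
Log2 fold changes of the 8 genes with each siRNA over control, with 95% intervals, in myotubes (left pair) and myoblasts (right pair). Filled points passed an adjusted p of 0.05. Ache and Colq stand at 0.91 and 1.14 with siRNA 1 and at 1.96 and 1.78 with siRNA 2, and every other estimate lies between -0.33 and 0.43.

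The agrin and MuSK genes moved little in depleted myotubes. Agrn had 43.8, 43.5 and 40.7 CPM with siRNA 1 and 45.2, 40.3 and 39.2 CPM with siRNA 2, against 49.3, 47.9 and 49.8 CPM in control myotubes. All 6 depleted libraries were below the 3 controls, and Agrn fell with both siRNAs (log2 -0.20, adjusted p = 0.0271, and -0.24, adjusted p = 0.0062, edgeR). The siRNA 1 call was lost in 8 of 19 alternative analyses (adjusted p between 0.00327 and 0.13 over all of them), including those without control replicate 1 or 3 and without siRNA 1 replicate 2 or 3. Lrp4, its receptor, had 289, 312 and 305 CPM with siRNA 2, against 378, 404 and 360 CPM in control myotubes, and fell (-0.33, SE 0.05, adjusted p = 0.000502, edgeR). With siRNA 1 Lrp4 had 393, 358 and 353 CPM, which overlapped the control, and was not called (-0.04, 95% interval -0.16 to 0.07). Musk had between 136 and 142 CPM with siRNA 1 and between 128 and 132 CPM with siRNA 2, against 119 to 136 CPM in control, with no call (0.12 and 0.02). Dok7 had between 56.4 and 63.5 CPM with siRNA 1 and between 50.1 and 62.1 CPM with siRNA 2, against 61.4 to 64.0 CPM in control, again with no call (-0.05 and -0.14).

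Rapsn separated the 2 siRNAs in myotubes. It had 128, 122 and 124 CPM with siRNA 1, against 109, 106 and 105 CPM in control myotubes, and rose by 0.23 on the log2 scale (SE 0.04, adjusted p = 0.000911, edgeR). With siRNA 2 it had 105, 104 and 102 CPM and was not called (-0.05, adjusted p = 0.343, edgeR). An antisense gene in Rapsn exons, Gm13778, averaged 0.43 CPM. Utrn had 562, 631 and 628 CPM with siRNA 1 and 474, 551 and 540 CPM with siRNA 2, against 586, 635 and 533 CPM in control myotubes, with no call for either (0.06 and -0.17). Utrn has a single annotated transcript in these tables.

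Set directly against each other in myotubes, siRNA 2 over siRNA 1 gave higher Ache (log2 1.05, adjusted p = 1.36e-05, edgeR) and higher Colq (0.63, adjusted p = 0.0275, edgeR). It gave lower Rapsn (-0.27, adjusted p = 0.00029), Lrp4 (-0.29, adjusted p = 0.00257) and Utrn (-0.23, adjusted p = 0.049), all by edgeR. So 2 of the 8 rose and 3 fell, where 7.76% of all genes rose and 9.36% fell. The Colq difference was not called in 7 of 19 alternatives, among them those without siRNA 1 replicate 1, 2 or 3 or siRNA 2 replicate 3, and the Utrn difference in 9 of 19, among them those without control replicate 1 and without replicate 2 or 3 of siRNA 1 or any replicate of siRNA 2. The Lrp4 difference was not called in 1 of 19, the fit of all 18 libraries (adjusted p = 0.0882, edgeR). Musk, Dok7 and Agrn were not called (-0.10, 95% interval -0.19 to 0.00, -0.09, -0.25 to 0.07, and -0.04, -0.17 to 0.08).

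In myoblasts Ache and Colq were too low to test. Ache had 5, 3 and 2 reads with siRNA 1 and 4, 2 and 3 with siRNA 2, against 2, 2 and 3 in control myoblasts, and the pooled ratios were 1.43 (0.491 to 4.42) and 1.40 (0.465 to 4.43). Colq had 5, 3 and 2 reads with siRNA 1 and 1, 1 and 9.6 with siRNA 2, against 1, 0 and 3 in control, with pooled ratios of 2.50 (0.721 to 10.9) and 3.27 (0.992 to 13.9). All 4 intervals include a ratio of 1, and no difference was detectable at this depth for either gene. The library with 9.6 Colq reads is the one named SETD3.

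Of the 6 genes tested in myoblasts, 1 rose with siRNA 1, where 11.6% of 15586 genes rose and 8.44% fell. With siRNA 2, 2 rose, where 17.1% rose and 16.5% fell, so the share of members called was near the background. With the replicate number as a block 5 of the 6 rose with siRNA 2, where 20.3% of all genes rose and 19.6% fell. Musk had 32.9, 33.7 and 28.0 CPM with siRNA 1 and 34.2, 29.1 and 29.3 CPM with siRNA 2, against 27.0, 25.1 and 26.2 CPM in control myoblasts. It rose with both (log2 0.28, adjusted p = 0.037, and 0.25, adjusted p = 0.0396, edgeR), and each call was lost in 9 of 20 alternatives, including the removal of any 1 control. Without siRNA 1 replicate 1 both calls were also lost, as was the siRNA 1 call without siRNA 1 replicate 2 and the siRNA 2 call without siRNA 2 replicate 1. In these libraries the 5 dividing-myoblast markers summed to between 1330 and 1380 CPM with siRNA 1 and between 1460 and 1580 CPM with siRNA 2, against 1240 to 1270 CPM in control myoblasts. Most of each sum was Mki67, which averaged 962 and 1080 CPM with siRNA 1 and siRNA 2, against 871 CPM in control. With siRNA 1 Pax7 was below control (34.2 to 35.8 CPM, against 38.3 to 39.2 CPM), and Myf5, Myod1 and Ccnb1 overlapped it. With siRNA 2 all 5 markers were above control in every library. The 4 fibroblast markers summed to between 94.8 and 123 and between 139 and 197 CPM with siRNA 1 and siRNA 2, against 62.2 to 92.5 CPM in control, most of it Col1a1, with Thy1 at most 0.0554 CPM. The 6 myotube markers overlapped, with 34.0 to 87.6 and 59.7 to 125 CPM with siRNA 1 and siRNA 2, against 30.3 to 88.3 CPM in control. The part of these shifts in the myoblast results was not tested. Dok7 had 16.2, 17.2 and 17.4 CPM with siRNA 2, against 14.7, 14.9 and 13.5 CPM in control, and rose (0.24, adjusted p = 0.0221, edgeR). That call was lost in 7 of 20 alternatives, including those without control replicate 3, without siRNA 2 replicate 2 and without the library named SETD3. That library is siRNA 2 replicate 3, and its removal is counted among the alternatives both by name and as a replicate. With siRNA 1 Dok7 had 12.6, 11.8 and 14.6 CPM and was not called (-0.14). Over siRNA 1, siRNA 2 gave higher Dok7 (0.38, adjusted p = 0.00223, edgeR), the only member called between the siRNAs in myoblasts, where 12.1% of all genes rose and 14.3% fell.

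Lrp4 in myoblasts varied with the prefix of the library name. It had 52.0, 56.0 and 41.6 CPM with siRNA 1 and 68.1, 56.9 and 58.3 CPM with siRNA 2, against 53.0, 42.2 and 41.6 CPM in control myoblasts. The libraries of prefix C14, siRNA 1 replicates 1 and 2 and replicate 1 of siRNA 2 and of control, were the highest of their arm. The siRNA 2 change was 0.43 (SE 0.15, adjusted p = 0.0607, edgeR), short of the threshold, and with the replicate block it was 0.43 with adjusted p = 0.0296. With prefix as a term it was 0.43 with adjusted p = 1.05e-11, and the log2 ratio was 0.365 within prefix C14, 1 library against 1, and 0.464 within prefix D2, 2 against 2. Rapsn, Agrn and Utrn were not called with either siRNA in myoblasts, with log2 changes between -0.06 and 0.13 in the fit without block or prefix. With the replicate block, Rapsn (0.13, adjusted p = 0.0346) and Utrn (0.08, adjusted p = 0.0244) rose with siRNA 2, both by edgeR. With prefix as a term their adjusted p with siRNA 2 was 0.00967 and 0.00628, and Rapsn was also called with siRNA 1 (0.13, adjusted p = 0.0223, edgeR). Rapsn had between 36.8 and 43 CPM with siRNA 1 and between 38.5 and 41.4 CPM with siRNA 2, against 35.0 to 37.55 CPM in control myoblasts. Agrn had between 45.2 and 49.6 CPM with siRNA 1 and between 44.2 and 48.9 CPM with siRNA 2, against 45.3 to 52.7 CPM in control. Utrn had between 282 and 293 CPM with siRNA 1 and between 285 and 300.2 CPM with siRNA 2, against 272 to 287 CPM in control. Of these 6 sets of depleted libraries, only Rapsn with siRNA 2 did not overlap its control.

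The depletion effect differed between the stages for few members. The contrast subtracts the log2 change in myoblasts from that in myotubes. For the mean of both siRNAs 1 of 8 members fell, Lrp4 (-0.47, SE 0.13, adjusted p = 0.0223, edgeR), where 10.6% of all genes rose and 12.8% fell. For siRNA 2 alone 3 of 8 fell, where 13.3% rose and 13.6% fell: Lrp4 (-0.76, adjusted p = 0.00235), Dok7 (-0.37, adjusted p = 0.0164) and Utrn (-0.24, adjusted p = 0.0484, edgeR). For siRNA 1 alone none of the 8 was called by edgeR, where 1 had an unadjusted p under 0.05, Agrn at 0.0479. The share of all genes called in that siRNA 1 contrast is not given here. The mean Lrp4 call was lost without control myoblast replicate 2 or 3 and without control myotube replicate 1 or 2 (log2 values over all alternatives between -0.59 and -0.404). For Ache and Colq the contrast carried the few myoblast reads, with mean values of 0.96 (95% interval -0.24 to 2.16) and 0.03 (-1.05 to 1.10).

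The mix of Musk transcripts differed between the stages. Of 43 transcripts of the 8 genes, 33 entered the transcript fit of the stages, and 23 rose and 3 fell, where 23.6% of 49510 transcripts rose and 21.4% fell. Musk-205, which holds neither the 30- nor the 24-base exon shown above, averaged 4.55 ± 0.797 TPM in control myoblasts (SD, n = 3) and was listed at 0 estimated reads in control myotubes. Musk-202, which holds the 24-base exon and not the 30-base exon, averaged 44.0 ± 1.52 TPM in control myotubes and 5.14 ± 0.665 TPM in control myoblasts (log2 3.12, adjusted p = 4.63e-12, edgeR). Musk-207, which holds the 30-base exon and not the 24-base exon, averaged 24.4 ± 2.05 TPM in control myotubes and 4.23 ± 0.0627 TPM in control myoblasts (2.55, adjusted p = 7.15e-07, edgeR).

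Summed over transcripts that span the site, those with the 24-base exon held 67.7%, 65.8% and 67.9% of Musk TPM in control myotubes, against 36.2%, 36.0% and 44.6% in control myoblasts. The groups did not overlap (exact two-sided permutation test p = 0.1, the smallest that 3 against 3 allows). Since the exons were picked for separate ranges in the 2 stages, that p-value adds no support. The share with the 30-base exon was 38.3%, 40.8% and 38.1% in control myotubes, against 32.1%, 34.7% and 34.5% in control myoblasts, again without overlap. In depleted myotubes the 24-base share was 70.3% with siRNA 1, overlapping the control, and 72.4% with siRNA 2, above it, against 67.1% in control myotubes. The 30-base share was 34.3% and 33.8% with siRNA 1 and siRNA 2, below the 39.1% of control myotubes without overlap (exact permutation p = 0.1 each). In myoblasts the 30-base share with siRNA 2 was 24.6%, below the 33.8% of control without overlap, and with siRNA 1 the groups overlapped.

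Agrn kept its total while its transcripts Agrn-203 and Agrn-202 shifted. Agrn-203, the only transcript in the annotation with the 12-, 24- and 33-base exons, held 22.6%, 13.1% and 12.7% of the TPM of Agrn transcripts spanning those sites in control myotubes, against 0.0855%, 0.00% and 1.48% in control myoblasts. The groups did not overlap (exact permutation p = 0.1), which is why these exons were picked, and the transcript rose (log2 5.01, SE 1.09, adjusted p = 0.00201, edgeR). Agrn-202, which starts at the same site and lacks all 3 exons, averaged 1.43 ± 0.603 TPM in control myotubes and 3.58 ± 0.223 TPM in control myoblasts and fell (-1.29, adjusted p = 0.00282, edgeR). The main transcript, Agrn-206, held 54.8% of Agrn TPM in control myotubes and 52.0% in control myoblasts. It was not called (0.14, adjusted p = 0.334, edgeR). Agrn-205, at 19.3% and 20.0%, was not called either (0.02, adjusted p = 0.965, edgeR). Since no annotated transcript holds 1 of the 3 exons without the others, reads from any 1 of them are assigned to Agrn-203, and which exon was used cannot be told apart here. In depleted myotubes the share was 22.0% with siRNA 1 and 17.4% with siRNA 2, against 16.1% in control myotubes, and the groups overlapped.

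**Figure D4:**
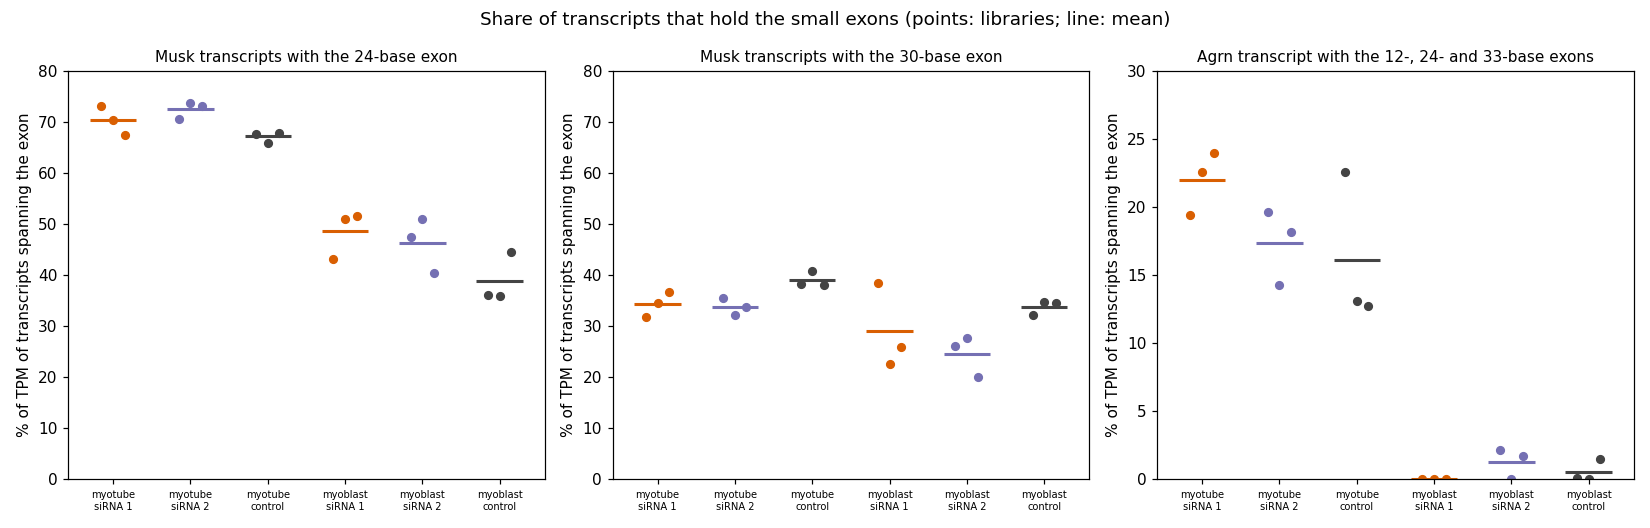
Share of TPM, in percent, held by transcripts with the 24-base Musk exon, the 30-base Musk exon and the 3 Agrn exons among annotated transcripts spanning each site, per library (points) with group means (lines). The 24-base Musk share is 67.1% in control myotubes and 38.9% in control myoblasts, and the Agrn share is 16.1% and 0.522%.

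In depleted myotubes most of the transcripts called belonged to the hydrolysis pair. With siRNA 1 in myotubes 6 of 31 tested passed, all of them upward, where 1.66% of 44552 transcripts rose and 1.03% fell, and with siRNA 2, 7 rose and 1 fell, where 3.87% rose and 2.55% fell. Ache-201 and Ache-202, which share their coding sequence, held 57.1% and 27.4% of Ache TPM with siRNA 1 and 60.5% and 27.1% with siRNA 2, against 53.6% and 34.3% in control myotubes. Ache-201 rose with both (log2 1.00 and 2.16), Ache-202 rose with siRNA 2 (1.66, adjusted p = 0.00801) and was not called with siRNA 1 (0.60, adjusted p = 0.32), all by edgeR. Ache-208, which retains an intron, was called with both (0.89 and 1.76), but with no filter on low counts the siRNA 1 call was lost (adjusted p = 0.0633, edgeR). The shorter Ache-209, named after its values were seen since it holds 2.61% of Ache TPM, was called with both siRNAs, with 82.7 and 76.0 estimated reads over 3 libraries, and was listed at 0 in control myotubes. Colq-201 and Colq-205, which differ in their first exon, held 85.6% and 14.4% with siRNA 1 and 82.7% and 17.3% with siRNA 2, against 86.3% and 13.7% in control myotubes. Colq-201 rose with both siRNAs (1.12 and 1.72) and Colq-205 with siRNA 2 (2.13). Musk-202 was called with both (0.24 and 0.17), the siRNA 2 call being lost with no filter (adjusted p = 0.127, edgeR). Rapsn-201 rose with siRNA 1 (0.24), and Lrp4-201 fell with siRNA 2 (-0.32).

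Other genes of the junction were counted in lists chosen by function. All 5 muscle acetylcholine receptor subunit genes rose in control myotubes over control myoblasts, where 39.4% of all genes rose and 38.1% fell. Chrna1, the ligand-binding alpha subunit, averaged 1517 ± 99.4 CPM in control myotubes and 317 ± 7.9 CPM in control myoblasts, and Chrne, the subunit of the adult receptor, averaged 5.35 ± 0.346 and 0.00553 ± 0.00957 CPM (SD, n = 3). In depleted myotubes only Chrnb1 rose with both siRNAs (log2 0.17 and 0.16), 1 of 5 tested (20.0%). There 11.0% of all genes rose with siRNA 1 and 15.8% with siRNA 2. In myoblasts, of 4 tested, Chrna1 (0.28 and 0.34) and Chrnb1 (0.13 and 0.25) rose with both while Chrnd fell (-0.23 and -0.32). That is 50.0% rising and 25.0% falling, against 11.6% and 8.44% of all genes with siRNA 1 and 17.1% and 16.5% with siRNA 2. Each of these receptor changes with depletion, in either stage, was smaller in absolute log2 value than those of Ache and Colq in depleted myotubes. In myoblasts Ache and Colq were not tested.

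Of 14 genes for utrophin-associated proteins and dystrophin, 12 rose and 2 fell with differentiation, where 39.4% of all genes rose and 38.1% fell. In depleted myotubes 8 of them rose with each siRNA (57.1%, against 11.0% of all genes with siRNA 1 and 15.8% with siRNA 2), and 0 and 1 fell. Their median log2 change was 0.26 and 0.29, against medians of 0.00 and -0.01 over all genes. Among them Dag1, the dystroglycan gene that also binds agrin, averaged 1469 ± 36.7 CPM with siRNA 1 and 1621 ± 40.8 CPM with siRNA 2, against 1234 ± 66.0 CPM in control myotubes (log2 0.26 and 0.39). Sgcd, a sarcoglycan, rose by 0.54 and 0.85. Of the 16 basal lamina and hydrolysis genes tested, 9 rose and 6 fell with differentiation, none of them a member. Of these 16, 5 rose and 1 fell with siRNA 1 and 4 rose with siRNA 2 in myotubes (31.2% and 25.0% rising, against the same 11.0% and 15.8%), among them the laminin Lama5 (0.27 and 0.24). Dag1 is on this list as well, so it is counted among the rising genes of both lists in depleted myotubes. Of 26 genes of signalling below MuSK, 13 rose and 13 fell with differentiation. In myotubes 2 rose and 4 fell with siRNA 1, and 7 rose and 10 fell with siRNA 2. As shares that is 7.69% and 15.4% with siRNA 1, near the 11.0% and 9.57% of all genes, and 26.9% and 38.5% with siRNA 2, against 15.8% and 16.4%. Camk2b, a calcium-dependent kinase, rose with both (0.34 and 0.56), and Pak1, an actin-regulating kinase, fell with both (-0.16 and -0.45).

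Of 16 regulators of synaptic genes tested, 2 rose and 4 fell with siRNA 1 and 6 rose and 4 fell with siRNA 2 in myotubes. The shares were 12.5% rising and 25.0% falling with siRNA 1, against 11.0% and 9.57% of all genes, and 37.5% and 25.0% with siRNA 2, against 15.8% and 16.4%. Mef2c, a muscle transcription factor, rose with both (0.38 and 0.49). Myod1 (-0.23 and -0.23) and the inhibitors of basic helix-loop-helix factors Id1 (-0.52 and -0.27) and Id3 (-1.05 and -0.85) fell with both. Of 8 neuregulin receptor and Ets genes tested, 1 rose and 1 fell with each siRNA, a share of 12.5% each way and near that of all genes, and of 5 glycosylation enzymes of congenital myasthenia none was called by edgeR in depleted myotubes, where 1 with siRNA 1 and 2 with siRNA 2 had an unadjusted p under 0.05. With differentiation 6 of the regulators rose and 6 fell, as did 3 and 4 of the neuregulin and Ets genes and 2 and 2 of the glycosylation enzymes, shares between 37.5% and 50.0% where 39.4% of all genes rose and 38.1% fell. In myoblasts 11.6% of all genes rose and 8.44% fell with siRNA 1, and 17.1% and 16.5% with siRNA 2. There siRNA 1 raised 5 of the 26 genes below MuSK and siRNA 2 raised 8, with 2 and 5 falling (19.2% and 30.8% rising). Of the 14 basal lamina genes tested there, 2 rose and 2 fell with siRNA 1, and 9 rose and 1 fell with siRNA 2 (14.3% and 64.3% rising). Of the 13 utrophin-associated genes tested there, 2 rose and 1 fell with siRNA 1, and 5 rose and 1 fell with siRNA 2 (15.4% and 38.5% rising). In the same stage, siRNA 1 and siRNA 2 raised 1 and 6 of the regulators, 1 and 4 of the neuregulin and Ets genes, and 1 and 2 of the glycosylation enzymes, with 2 and 1, 1 and 0, and 1 and 0 falling.

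The profiles of the members over the 18 libraries were compared with those of 12685 genes by the root mean square difference of centred log2 values. Nearest to Ache were Galnt5 (0.21), Nmrk2 (0.32) and Colq (0.33), and nearest to Colq were Ache (0.33), Galnt5 (0.37) and Cmya5 (0.38). No other member was among the 3 nearest genes of a member, although Musk and Dok7 lay closer in value, at 0.22. Musk was nearest to Sync (0.095), Rapsn to Zfp568 (0.091), Dok7 to Dusp13 (0.14), Lrp4 to Frmpd1 (0.14), Agrn to Spin1 (0.064) and Utrn to Cdh2 (0.064). Ache, Colq, Galnt5, Nmrk2 and Cmya5 averaged at most 0.052 CPM in control myoblasts, under the 0.1 CPM added before log2. Differences among these genes in that stage were therefore compressed. The libraries share their depth and the stage contrast, so these distances are descriptions.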

How the data were processed

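RNA-seq of 18 libraries was used. The authors deposited, per transcript, an estimated count of reads and a TPM value, which is scaled for transcript length and depth. The estimated counts were deposited by the authors unscaled between libraries, per the file headers and values. The submitters' processing notes name build mm10 and DESeq2, while neither the quantification program nor the use of strand is stated in them. Of 115088 transcripts, 114200 were assigned to 47311 genes of GENCODE M21, and the 888 others, with between 0.16% and 0.24% of the reads of a library, were left out.

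Estimated counts were summed per gene, rounded to whole numbers and tested with edgeR 4.0.16 (R 4.3.3), its quasi-likelihood test, TMM scaling, a minimum count of 10 and Benjamini-Hochberg adjustment over all genes tested. Depletion was tested in the 9 libraries of each stage, and differentiation and the stage difference in all 18. CPM values are TMM-scaled over 18 libraries. TPM values of the authors were summed per gene to order the members and compute exon shares. Transcript estimates were tested the same way, and they carry uncertainty from shared sequence. Intervals are 95%. The fits were tested on simulated data. DESeq2 1.42.0 and limma 3.58.1, on log2 of TPM plus 0.1 or 1, were alternatives, beside other scaling, filters, blocks and left-out libraries.

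The members, the gene lists and the marker lists were chosen with earlier results of these data known. All 8 members are named in every comparison. Listed genes were named by the smallest adjusted p with differentiation or by a call in the same direction with both siRNAs of a stage. Transcripts were named from those with a share of at least 5% of their gene, though not all of these are named. Similar genes were taken from the 3 nearest profiles on log2 of CPM plus 0.1. Replicate numbers were not in the fits reported, since the labels tie them to no shared culture. As a check, deviations of same-numbered libraries from their group means were correlated. All 3 pairs were over 0.1 for siRNA 2 and control myoblasts (0.541, 0.225 and 0.298) and for siRNA 2 and siRNA 1 myotubes (0.3, 0.124 and 0.245), so values with the replicate block are given beside those results where a call changes. In each of the other comparisons at least 1 pair was not. In both stages, libraries of different arms correlated positively wherever their name prefix was the same and negatively wherever it differed. In myoblasts control replicate 1 and siRNA 1 replicate 2, both C14, gave 0.461. The same-numbered replicates 2 of those arms, of unlike prefix, gave -0.22. Where all 3 pairs were over 0.1 the same-numbered libraries also shared a prefix, so number and prefix cannot be told apart there.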

Additional observations from a re-analysis of the deposited data

Results flagged for a closer look

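For 3 of the 8 genes the effect of depletion with siRNA 2 differed between the stages by the test of the difference itself, which subtracts the log2 change in myoblasts from that in myotubes. All 3 differences were negative, where 13.3% of all genes tested rose and 13.6% fell in this siRNA 2 contrast. For Lrp4, the agrin receptor, the difference was -0.47 for the mean of both siRNAs (adjusted p = 0.0223, edgeR) and -0.76 for siRNA 2 (adjusted p = 0.00235, edgeR). Lrp4 changed by -0.33 with siRNA 2 in myotubes and by 0.43 in myoblasts, the second short of the threshold. The siRNA 2 difference held in 27 of 27 alternative analyses, while the mean difference was lost in 5 of 27, with no filter, without control myoblast replicate 2 or 3 and without control myotube replicate 1 or 2.

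For Dok7, the MuSK adaptor, the difference was -0.37 for siRNA 2 (adjusted p = 0.0164, edgeR), from changes of -0.14 in myotubes and 0.24 in myoblasts, and it held in 27 of 27 alternatives. For Utrn it was -0.24 (adjusted p = 0.0484, edgeR), from -0.17 in myotubes and 0.08 in myoblasts, and it was lost in 14 of 27 alternatives, with adjusted p of at most 0.105. With siRNA 1 none of the 3 genes was called (Lrp4 -0.18, Dok7 0.09 and Utrn 0.00), nor were Dok7 (-0.14) and Utrn (-0.12) for the mean of both siRNAs.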

How the results depend on the processing

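Of 1464 values of single members under alternative settings, 1281 kept their direction and side of the threshold, 69 lost and 69 gained a call, and 45 changed sign, none of them past the threshold in either analysis. Where myoblast libraries enter, the removal of the library named SETD3 is counted both by name and as a replicate, although these are the same fit. The Ache and Colq calls in depleted myotubes and all 7 differentiation calls held in every alternative run. The causes of the changes below were not tested.

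The count of members called with siRNA 1 in myoblasts was 0 with no filter and with limma with no filter, 2 with the prefix term, with or without same-prefix libraries summed, and 0 to 2 with a library left out. With siRNA 2 in myoblasts it was 1 with no filter, 0 with each of the 3 limma settings, 5 with the prefix term, summed or not, 1 without the library named SETD3, and 1 to 4 with a library left out. With siRNA 2 in myotubes it was 7 with limma at pseudocounts of 0.1 and 1. For siRNA 2 over siRNA 1 it was 2 with the prefix term in myoblasts, summed or not, and in myotubes 3 with no filter and with limma with no filter, and 3 to 5 with a library left out. For the mean stage difference it was 0 with no filter, 2, 3 and 2 with limma at 0.1, at 1 and with no filter, 4 with the prefix term, and 0 to 2 with a library left out. For the siRNA 2 stage difference it was 5, 6 and 5 with the same limma settings and 6 with the prefix term. Shares of all genes called under these settings are not given here, so these counts do not tell a trait of the members from a more permissive fit.

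Over all comparisons, correlations of same-numbered libraries ran between -0.377 and 0.541 in myoblasts and between -0.32 and 0.3 in myotubes, with 10 of 18 and 11 of 18 best with their own number. With the replicate block 5 members were called with siRNA 2 in myoblasts, 2 for the mean stage difference, and 5, as without it, for siRNA 2 over siRNA 1 in myotubes.

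Sign changes, all among values without a call, were as follows. Under limma at 0.1, at 1 and with no filter, Utrn with siRNA 1 was -0.016, -0.016 and -0.016 in myoblasts and -0.0025, -0.0024 and -0.0025 in myotubes, Musk with siRNA 2 in myotubes -0.067, -0.066 and -0.067, and Agrn for siRNA 2 over siRNA 1 in myoblasts 0.057, 0.053 and 0.057. In that last comparison the prefix term gave Agrn 0.0057, or 0.00036 summed, Musk 0.034, or 0.047 summed, and Rapsn -0.0068 summed, and Musk was 0.0068 without the library named SETD3. Colq for the mean stage difference was -0.072 with DESeq2. With a library left out, Agrn ran between -0.062 and 0.049 with siRNA 1 in myoblasts, -0.112 and 0.006 with siRNA 2 in myoblasts, -0.013 and 0.1 with differentiation, and -0.113 and 0.00031 for siRNA 2 over siRNA 1 in myotubes. Dok7 and Utrn with siRNA 1 in myotubes ran between -0.085 and 0.0091 and between -0.0051 and 0.116, and Musk with siRNA 2 in myotubes between -0.031 and 0.055. For siRNA 2 over siRNA 1 in myoblasts Musk ran between -0.11 and 0.023 and Rapsn between -0.01 and 0.1. For the mean stage difference Colq ran between -1.192 and 0.949 and Rapsn between -0.048 and 0.01, and for siRNA 2 Colq between -1.06 and 2.002.

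The prefix term was not run for differentiation, where prefixes change with the stage, nor the summed libraries for the stage comparisons. Ache and Colq had at most 9.6 reads per myoblast library, which limits what can be said of them there. Exon shares rest on transcript estimates, and reads within 1 short exon were not counted here.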
